A study of Mus musculus with 16 samples.

Results

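The genes described here are 9 scaffolds and organizers of the presynaptic active zone: Bsn, Pclo, Rims1, Rims2, Unc13a, Erc1, Erc2, Ppfia3 and Rimbp2. They were taken by symbol from the gene tables of the series, and all 9 were found among the 24968 genes used. The series holds 16 bulk RNA-seq libraries of mouse dorsal hippocampus, 9 from trained and 7 from untrained animals. All mice carried ArcCreERT2::eYFPflx, an allele pair made to label cells that express the activity gene Arc, on a C57BL/6 background, and were 3 to 4 months old. Trained mice learned to avoid an unmarked shock zone on a rotating arena over 4 trials, and untrained mice went through the same trials with the shock always off. Both groups had a retention test without shock 24 h later and were killed 60 min after it, so no group represents mice left in the home cage. CA1, CA3 and dentate gyrus (DG) were cut out by hand, and the pieces of each animal were pooled by subregion, giving 3 trained and 3 untrained libraries labelled CA1, 3 and 2 labelled CA3, and 3 and 2 labelled DG. Values are normalized estimated counts, and differences are given on the log2(value + 2) scale with limma, whose p-values were adjusted by the Benjamini-Hochberg method over all genes tested.

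The active zone is the stretch of presynaptic membrane where synaptic vesicles dock, are primed and fuse. RIM proteins, encoded by Rims1 and Rims2, bind vesicle-bound Rab3, the priming factor Munc13-1 (Unc13a) and, through RIM-binding proteins such as that of Rimbp2, voltage-gated calcium channels, which places vesicles close to the sites of calcium entry. ELKS proteins (Erc1, Erc2) and liprin-alpha proteins (Ppfia3 among them) hold these parts together, and Bassoon (Bsn) and Piccolo (Pclo) are giant scaffolds that span the region and help keep a supply of vesicles. The protein works at the nerve terminal, whereas most mRNA of a neuron is in or near the cell body, so a library of a dissected subregion mainly samples the mRNA of the neurons whose bodies lie there, together with glial and vascular RNA.

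The subregion labels were checked against marker genes before the members were compared. The dentate granule list, 6 genes including Prox1, summed to 8777 to 11237 in libraries labelled DG, 8391 to 10322 in those labelled CA1 and 7356 to 12683 in those labelled CA3. Libraries labelled CA1 and CA3 thus held as much of these transcripts as those labelled DG, and Prox1 differed by -0.07 on the log2 scale between CA1 and DG (limma adjusted p = 0.806). The CA1 list summed to 3281 to 5300 in untrained CA1, but to 1624 to 2011 in trained CA1, against 1351 to 2142 in DG. None of the 6 genes of any of the 3 lists passed the test between labelled subregions. The text therefore speaks of labelled subregions throughout.

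**Figure D1:**
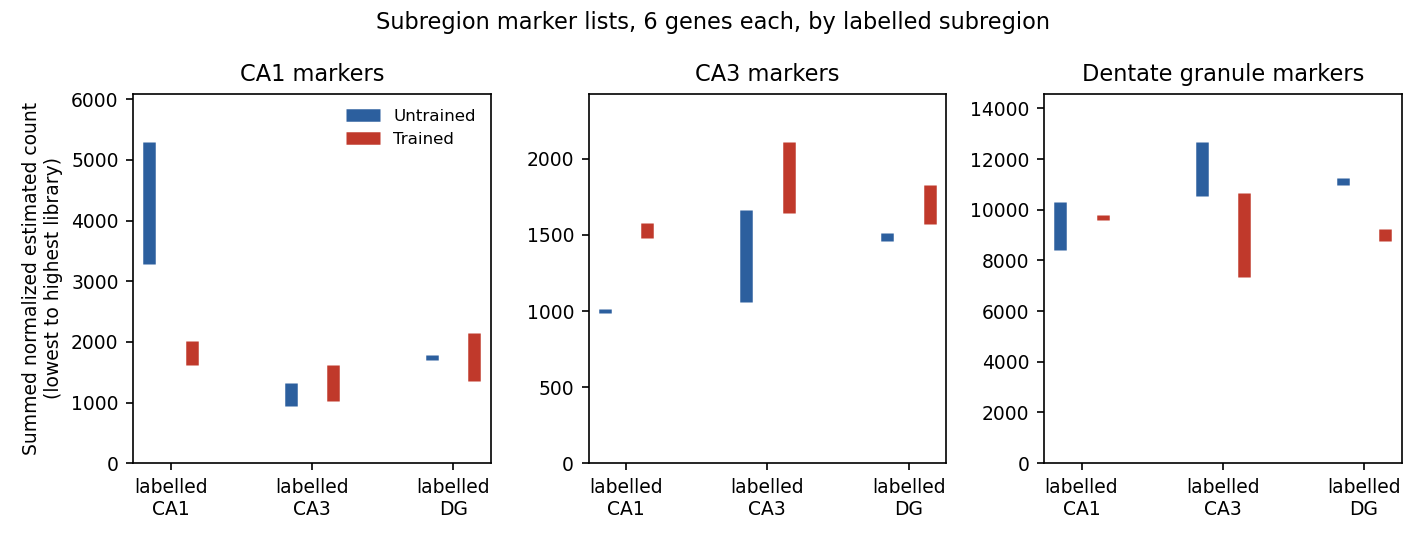
Summed normalized estimated counts of 6 CA1, 6 CA3 and 6 dentate granule marker genes (vertical axes) by labelled subregion, where each bar runs from the lowest to the highest library of the untrained (blue) or trained (red) group. The dentate granule sums overlap between the 3 labels, and the CA1 sums stand apart only in untrained CA1 (3281 to 5300).

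Further values of the libraries follow the training label. Xist, the RNA that silences an X chromosome in females, had values of 7601 to 19592 in all 9 trained libraries and under 100 in 6 of the 7 untrained ones, although the study's methods place both sexes in each training group. Untrained CA3 replicate 1 and trained DG replicate 3 held both Xist (10587 and 7601) and Y-linked transcripts (sums of 601.4 and 677.7), so the members' counts over all subregions, and the calls of members that rest on these libraries, are also given without them. The calls of partner genes were not repeated without them. The other libraries of untrained replicate 1 had low Xist (26.05 in CA1 and 25.49 in DG). Smaller Y-linked sums stood beside high Xist in trained CA1 replicates 1 and 3 (202.5 and 267.8) and trained CA3 replicate 3 (233.9). The remaining trained libraries had Y-linked sums of 1.658 to 26.18. Sex-linked transcripts and training cannot be told apart in CA1 and DG. The number of genes with a value of exactly 0 was 7567 to 9758 in 7 libraries (untrained DG replicates 1 and 3, every trained CA1 library, and the first and second trained CA3 replicates) and 3124 to 5944 in the other 9. The reads behind a library, approximated from the spacing of its low values, ran from 2550000 to 14910000.

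The 9 genes are long and well expressed. Their longest coding transcripts in the GENCODE annotation of GRCm38 ran from 4647 bases for Ppfia3 to 20084 bases for Pclo, against a median of 3327 bases over 13388 genes of mean value at least 10. Bsn (chromosome 9, 108096022 to 108190384, minus strand) has a transcript of 15938 bases with 59.8% GC. Pclo (chromosome 5, 14514918 to 14863459, plus strand) has 45.4% GC, so these related giants differ in base composition. Ppfia3 (chromosome 7, 45339122 to 45367019, minus strand) was the most GC-rich of the 9 at 60.5%. The GC and length trend of all genes is treated as an alternative beside the results it moves.

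Per kilobase of that transcript, Bsn stood highest with a mean level of 599.4 ± 131.0 (SD, n = 16 libraries). Erc2, the ELKS form found mainly in brain, followed with 480.6 ± 47.1 and Pclo with 428.3 ± 44.6. Unc13a had 363.9 ± 22.1, Rims1 320.1 ± 33.7 and Rimbp2 319.0 ± 24.1 per kilobase. Ppfia3 (213.3 ± 24.4), Rims2 (170.2 ± 19.5) and the widely expressed ELKS gene Erc1 (130.6 ± 6.26) stood lowest, all above the median of 64.0 over genes of mean value at least 10. The step from Bsn to Erc2 and the step from Rims1 to Rimbp2 were no larger than the SD over libraries. Every other step to the next gene exceeded the larger SD of the pair, and Erc2 was above Pclo in 16 of 16 libraries. Each gene value pools the isoforms, and the order holds for this choice of transcript.

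The spread over the 16 libraries differed as much as the level. Bsn had a coefficient of variation of 21.8% and its highest library was 2.02 times its lowest. For Pclo, Rims1, Rims2, Erc2 and Ppfia3 the coefficient of variation lay between 9.8% and 11.5%. Erc1 (4.79%), Unc13a (6.07%) and Rimbp2 (7.55%) varied least.

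Promoter sequences are shown for 3 genes that passed the test as higher in trained CA1, Bsn, Pclo (in CA1 alone) and Ppfia3, and for Unc13a, which did not pass under any label. Each runs 5′ to 3′ on the strand of the gene from 250 bases before to 50 bases after the start of RefSeq's gene model (GRCm38.p6), and RefSeq sequences were found for 8 of the 9 genes, Rims2 being the one without. Capitals mark matches on either strand to the GC box GGGCGG, the core TGACG of the cAMP response element and the EGR motif GCGNGGGCG, whose matches can overlap a GC box.
Bsn, chr9:108190334-108190633, minus strand: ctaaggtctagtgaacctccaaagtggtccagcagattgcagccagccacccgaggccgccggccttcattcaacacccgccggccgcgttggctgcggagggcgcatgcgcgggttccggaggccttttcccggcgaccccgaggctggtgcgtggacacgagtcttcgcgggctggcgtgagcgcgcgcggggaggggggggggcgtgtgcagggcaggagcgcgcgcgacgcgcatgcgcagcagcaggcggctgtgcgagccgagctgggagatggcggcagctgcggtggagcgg
Pclo, chr5:14514668-14514967, plus strand: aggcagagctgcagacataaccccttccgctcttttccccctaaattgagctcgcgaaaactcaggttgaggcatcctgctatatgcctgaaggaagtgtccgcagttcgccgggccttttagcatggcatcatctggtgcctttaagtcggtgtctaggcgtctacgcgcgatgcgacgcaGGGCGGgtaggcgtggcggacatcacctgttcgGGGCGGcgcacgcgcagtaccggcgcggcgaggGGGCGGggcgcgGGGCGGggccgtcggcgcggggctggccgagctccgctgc
Ppfia3, chr7:45366970-45367269, minus strand: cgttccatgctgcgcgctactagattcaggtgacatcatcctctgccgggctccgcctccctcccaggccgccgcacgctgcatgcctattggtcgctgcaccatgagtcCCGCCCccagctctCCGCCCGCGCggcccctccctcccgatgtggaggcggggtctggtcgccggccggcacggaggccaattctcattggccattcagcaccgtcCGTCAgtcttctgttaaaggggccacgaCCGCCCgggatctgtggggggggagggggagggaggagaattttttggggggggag
Unc13a, chr8:71671708-71672007, minus strand: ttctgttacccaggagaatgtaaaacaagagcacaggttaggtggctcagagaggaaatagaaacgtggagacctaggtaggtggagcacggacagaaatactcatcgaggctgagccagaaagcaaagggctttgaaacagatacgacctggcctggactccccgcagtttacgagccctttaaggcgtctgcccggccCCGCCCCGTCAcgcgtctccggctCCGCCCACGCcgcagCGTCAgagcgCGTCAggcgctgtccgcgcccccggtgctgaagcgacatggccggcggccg
The Bsn window held no match to any of these motifs and 38 CpG dinucleotides, against a median of 20 over the 13514 promoters of genes of mean value at least 10. The Pclo window held 4 GC boxes and no match to the other motifs. That of Ppfia3 held 3 GC boxes, 1 TGACG core and 1 EGR match, and that of Unc13a held 2, 3 and 1. Over those 13514 promoters, 61.9% held a GC box, 30.1% a TGACG core and 10.7% an EGR match, and a GC box was in 6 of the 8 windows, those of Bsn and Rimbp2 being without one. A match describes letters in this window and says nothing of binding.

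Bassoon transcripts showed the clearest difference between trained and untrained mice of the 9 genes. In CA1, Bsn was 6532, 6290 and 6984 in the untrained libraries and 11032, 11496 and 10644 in the trained ones. In CA3 it was 8105 and 7400 in untrained and 12686, 12140 and 11570 in trained libraries. Trained libraries of both labels lay above every untrained one, without overlap. In DG the groups overlapped, with 8684 and 9441 in untrained and 9968, 11204 and 8687 in trained libraries. The log2 difference was 0.74 in CA1 (standard error 0.045, limma adjusted p = 1.78e-08), a 1.68-fold difference, and Bsn had the smallest p-value of the 13585 genes tested there. It was 0.65 in CA3 (standard error 0.075, adjusted p = 0.00577) and 0.13 in DG (95% interval -0.10 to 0.36, adjusted p = 0.534). In CA3 the Bsn difference did not pass without trained replicate 2 (0.65, adjusted p = 0.0777) or untrained replicate 2 (0.58, adjusted p = 0.0536), at an estimate of much the same size. The untrained libraries also stood at different levels: the untrained DG mean of 9063 ± 535 (SD, n = 2) lay above that of untrained CA1, 6602 ± 352 (SD, n = 3).

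Piccolo, the relative of Bassoon, moved less. Pclo was 7519, 7561 and 7138 in untrained CA1 and 8860, 9097 and 9477 in trained CA1, with no overlap (log2 difference 0.30, standard error 0.042, adjusted p = 0.000182). In CA3 the untrained values of 7653 and 8033 also lay below the trained ones of 9168, 9187 and 9608. That CA3 difference of 0.25 did not pass the test over all genes (adjusted p = 0.12). In DG the order was the opposite, with 8812 and 10354 in untrained and 8459, 8788 and 7916 in trained libraries (log2 difference -0.19, adjusted p = 0.139). Without the animal labelled untrained 1, the DG difference was -0.31, and without that labelled untrained 3 it was -0.07. Each of these values rested on 1 untrained DG library.

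The balance of these giants shifted in the same direction under every label. The ratio of the Bsn value to the Pclo value was 0.832 to 0.978 in untrained CA1 and 1.12 to 1.26 in trained CA1. In CA3 it was 0.921 and 1.06 in untrained libraries and 1.20 to 1.38 in trained ones. In DG, where Bsn itself overlapped, the ratio was 0.912 and 0.985 in untrained and 1.10 to 1.27 in trained libraries. The trained ratios thus lay above the untrained ones under all 3 labels. The ratio was formed after the values of both genes had been seen and is given as a description.

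**Figure D2:**
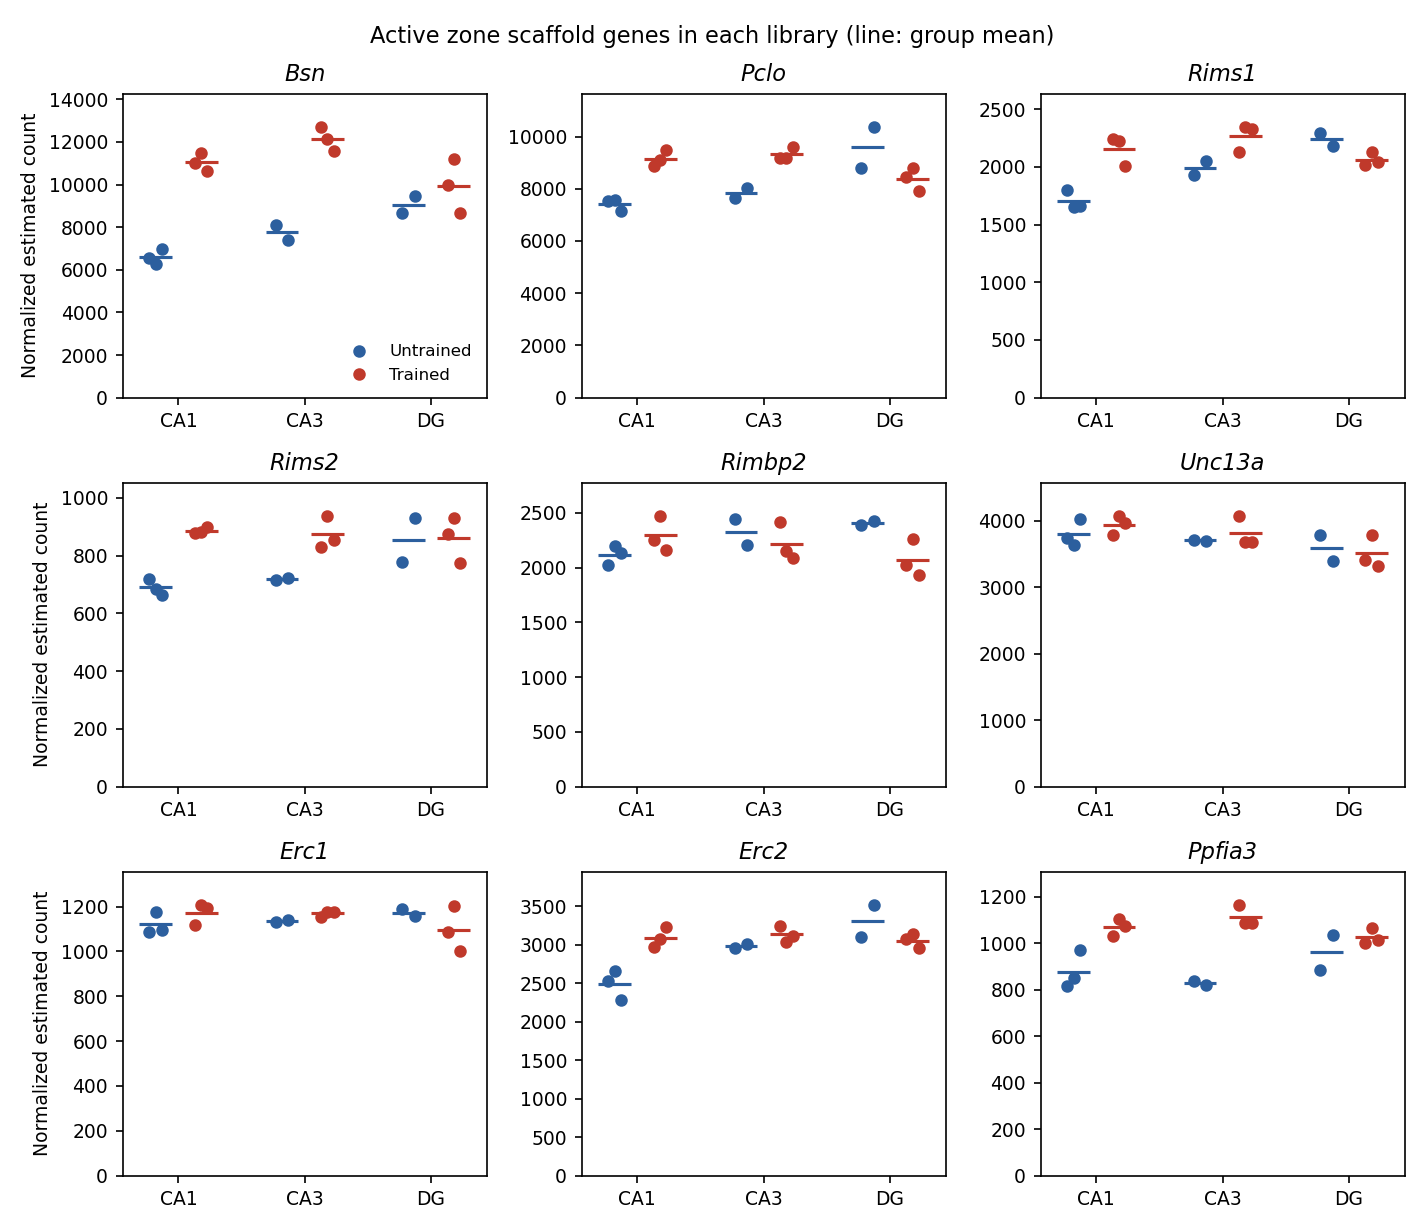
Normalized estimated count (vertical axes, starting at 0) of each of the 9 genes in every library by labelled subregion, untrained in blue and trained in red, with a line at each group mean. Trained Bsn values (10644 to 12686 in CA1 and CA3) lie above all untrained values of those labels, whereas the DG groups overlap, and the Unc13a groups overlap under each label.

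Among the RIM genes, both were higher in trained CA1. Rims1 was 1802, 1651 and 1658 in untrained and 2239, 2223 and 2008 in trained CA1 (log2 difference 0.34, standard error 0.059, adjusted p = 0.00158). Rims2 was 718, 686 and 665 in untrained and 877, 883 and 899 in trained CA1 (log2 difference 0.36, standard error 0.066, adjusted p = 0.00248). Neither gene's groups overlapped in CA1. In CA3 the trained values again lay above the untrained ones, with 1928 and 2047 against 2125, 2342 and 2328 for Rims1 and 715 and 721 against 830, 936 and 854 for Rims2. These CA3 differences of 0.19 and 0.28 did not pass the test (adjusted p = 0.272 and 0.135). In DG, Rims1 was 2295 and 2183 in untrained and 2018, 2125 and 2040 in trained libraries, a difference of -0.12 without overlap that did not pass (adjusted p = 0.323). Rims2 overlapped in DG, with 778 and 929 in untrained and 873, 929 and 776 in trained libraries. The ratio of Rims1 to Rims2 overlapped between the groups, at 2.41 to 2.51 in untrained and 2.23 to 2.55 in trained CA1.

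Rimbp2, whose protein ties RIMs to calcium channels, did not pass the test under any label. It was 2019, 2197 and 2131 in untrained and 2253, 2468 and 2162 in trained CA1, and the groups overlapped (log2 difference 0.12, 95% interval -0.01 to 0.24, adjusted p = 0.29). In CA3 the values were 2446 and 2208 in untrained and 2414, 2149 and 2083 in trained libraries (difference -0.07, adjusted p = 0.727). In DG the untrained values of 2385 and 2427 lay above the trained ones of 2022, 2259 and 1930. The DG difference of -0.22 (95% interval -0.37 to -0.07) had an unadjusted limma p of 0.00718 and an adjusted p of 0.098.

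Unc13a, which encodes the vesicle priming factor Munc13-1, did not pass the test under any label. Its values were 3734, 3629 and 4017 in untrained and 3784, 4063 and 3960 in trained CA1, and 3703 and 3699 in untrained and 4064, 3683 and 3684 in trained CA3. In DG they were 3780 and 3385 in untrained and 3409, 3789 and 3323 in trained libraries. The groups overlapped under each label. The log2 differences were 0.05, 0.04 and -0.03, with 95% intervals of -0.05 to 0.16, -0.12 to 0.21 and -0.18 to 0.12. Over all subregions the interval was -0.06 to 0.11. An exon of Unc13a shares 495 bases with one of Colgalt1 on the opposite strand, and the sources used here do not say whether strand was used in counting.

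The ELKS genes parted in CA1. Erc2 was 2533, 2658 and 2283 in untrained and 2978, 3080 and 3230 in trained CA1, without overlap (log2 difference 0.32, standard error 0.058, adjusted p = 0.00248). Erc1 overlapped, with 1086, 1178 and 1098 in untrained and 1119, 1206 and 1193 in trained CA1 (log2 difference 0.07, 95% interval -0.06 to 0.20, adjusted p = 0.625). In CA3, Erc2 was 2966 and 3008 against 3252, 3043 and 3119 and Erc1 was 1131 and 1141 against 1156, 1178 and 1178. Both sets of trained values lay above the untrained ones, but by 0.07 and 0.04 on the log2 scale (adjusted p = 0.663 and 0.802). In DG, Erc2 was 3097 and 3515 in untrained and 3074, 3138 and 2954 in trained libraries, and Erc1 was 1188 and 1157 against 1088, 1204 and 1002. Neither difference passed (-0.11 and -0.10, adjusted p = 0.381 and 0.553). The ratio of Erc2 to Erc1 was 2.08 to 2.33 in untrained CA1 and 2.55 to 2.71 in trained CA1, and under the other labels it was 2.58 or more in both groups.

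Ppfia3, the liprin-alpha gene of the 9, was higher in trained mice under both pyramidal cell labels. It was 816, 849 and 970 in untrained and 1032, 1106 and 1075 in trained CA1 (log2 difference 0.29, standard error 0.071, adjusted p = 0.0206). In CA3 it was 840 and 822 in untrained and 1164, 1087 and 1088 in trained libraries (log2 difference 0.42, standard error 0.075, adjusted p = 0.0337). The groups did not overlap under either label. The CA1 call was lost with 4 of the 6 animals left out in turn (adjusted p of up to 0.154, without untrained replicate 1), and in CA3 Ppfia3 did not pass without untrained replicate 1 (0.43, adjusted p = 0.223), untrained replicate 2 (0.123) or trained replicate 2 (0.241). In DG the values were 887 and 1038 in untrained and 1001, 1065 and 1016 in trained libraries (difference 0.10, adjusted p = 0.551). An exon of Ppfia3 shares 112 bases with one of the antisense gene Mtag2, and reads of the pair cannot be told apart if strand was not used in counting. With the GC content and length trend of all genes removed, the Ppfia3 difference was 0.21 in CA1 (adjusted p = 0.0568) and 0.24 in CA3 (adjusted p = 0.224), so neither call held.

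Over the 9 members, 6 rose in trained CA1 (Bsn, Pclo, Rims1, Rims2, Erc2 and Ppfia3) and none fell, against 5.23% of the 13585 genes tested there that passed in either direction and 3.53% that rose. Among genes with longer transcripts, 3.84% (4000 to 6000 bases), 5.13% (6000 to 10000 bases) and 9.57% (over 10000 bases) rose there. The median difference of the members in CA1 was 0.30, against 0.00 over all genes tested. All 6 also lay above without overlap, as did 12.9% of all genes in CA1. In CA3, 2 members rose (Bsn and Ppfia3), against 0.852% of 13845 genes called and 0.737% that rose, and the median was 0.19 against -0.01 over all genes. There 7 of the 9 lay above without overlap (all but Unc13a and Rimbp2), as did 17.2% of all genes. Without untrained CA3 replicate 1, 1 member was called in CA3, Bsn (0.71, adjusted p = 0.0393), and Ppfia3 was not, against 0.152% of all genes. In DG none of the members passed, against 3.4% of 13932 genes, nor did any without trained DG replicate 3, against 0.732%. With all DG libraries, 2 (Pclo and Rimbp2) had an unadjusted limma p under 0.05, as did 19.5% of all genes, a share near theirs. The DG median was -0.10 against 0.00 over all genes and against -0.03, -0.06 and -0.07 over genes with transcripts of 4000 to 6000, 6000 to 10000 and over 10000 bases. In DG no member lay above without overlap (17.4% of all genes did), and 3 (Pclo, Rims1 and Rimbp2) lay below, as did 18.2% of all genes.

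**Figure D3:**
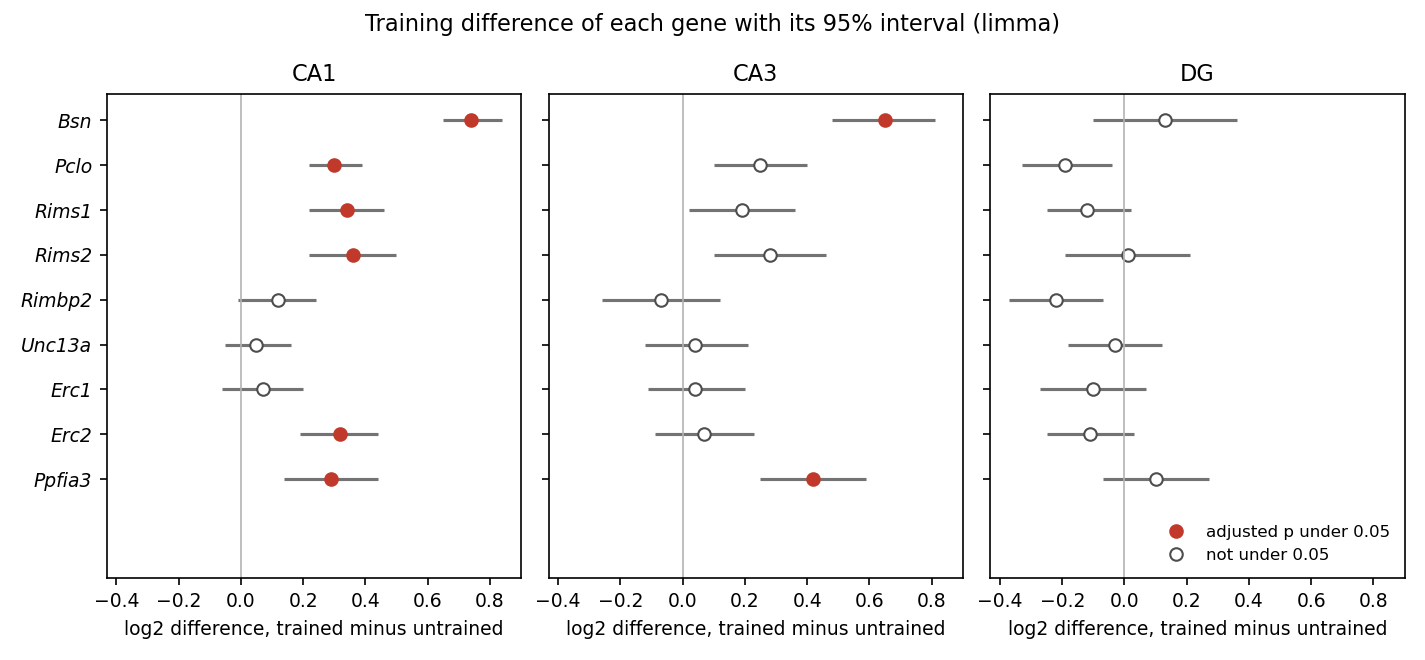
Log2 difference of trained minus untrained libraries (horizontal axes) for each gene under each labelled subregion, with 95% limma intervals and filled red points for an adjusted p under 0.05. In CA1 6 genes are filled, in CA3 2 (Bsn and Ppfia3) and in DG 0, and the Unc13a and Erc1 intervals include 0 under all 3 labels.

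Other values move with these results. In trained CA1, 3 of the 6 CA1 markers fell and none rose, 4 of the 6 CA3 markers rose and 1 fell, and the CA3 list summed to 1478 to 1579 against 989 to 1016 in untrained CA1. The glutamatergic neuron list (4 genes) summed to 59827 to 63576 in trained and 52381 to 58113 in untrained CA1, and 2 of its genes rose. In CA3 this list summed to 57173 to 63392 in trained and 53047 to 56216 in untrained libraries, with no gene called, and in DG to 58713 to 61515 and 58956 to 62322. No marker of these lists was at 0 in every library of a group. In bulk tissue more cells of a type and more RNA per cell cannot be told apart. In trained CA1 the endothelial list (5 genes) summed to 882 to 895 against 730 to 767, with no gene called, and 1 astrocyte marker (of 6) and 1 dentate granule marker (of 6) were lower. In trained CA3, 1 of 6 GABAergic neuron markers and 1 of 6 CA3 markers were higher. In CA3 the choroid plexus list (6 genes) summed to 241 to 328 in trained and 821 to 1132 in untrained libraries, and 2 of its genes fell. In DG the dentate granule list summed to 8777 to 9239 in trained and 10993 to 11237 in untrained libraries, with 2 genes lower, and the endothelial list to 422 to 465 and 591 to 834, with 1 gene lower. With no gene called, the oligodendrocyte list (6 genes) summed to 14042 to 15212 in trained and 15876 to 20352 in untrained DG, the GABAergic list to 3581 to 3748 and 3210 to 3493, and the CA3 list to 1574 to 1830 and 1460 to 1510. The number of genes at 0 separates trained from untrained libraries in CA1 and, the other way round, in DG. In CA3 the libraries with fewer genes at 0 were 1 trained (3171 genes) and 2 untrained (3578 and 5659), which were not fitted on their own. The part of these marker lists and of the number of genes at 0 in the members' differences within each label was not tested.

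Over all subregions together, where the 16 libraries of 3 trained and 3 untrained animals entered as separate libraries, 3 members rose and none fell, against 10.3% of 14670 genes called and 6.28% that rose. Bsn differed by 0.52 (adjusted p = 0.00197), Ppfia3 by 0.27 (adjusted p = 0.00171) and Rims2 by 0.23 (adjusted p = 0.00999). Rims1 (0.15, adjusted p = 0.0796), Pclo (0.14, adjusted p = 0.176) and Erc2 (0.11, adjusted p = 0.206) did not pass, and Unc13a, Erc1 and Rimbp2 lay between -0.05 and 0.02. With each animal reduced to 1 mean over its libraries, 3 animals against 3, Rims1 passed as well (0.16, adjusted p = 0.0335), against 7.34% of genes, with Bsn at 0.53 (adjusted p = 0.00643). Without untrained CA3 replicate 1 and trained DG replicate 3 the same 3 members passed, with Bsn at 0.58, Rims2 at 0.26 and Ppfia3 at 0.27. Without the animal labelled untrained 1, Ppfia3 (0.22, adjusted p = 0.051) and Rims2 (0.22, adjusted p = 0.106) no longer passed, and Rims2 was also lost without trained 2 (0.19, adjusted p = 0.0955) or untrained 2 (0.21, adjusted p = 0.0546). With a sex-linked score as a covariate no member and no gene at all passed in limma (1702 genes had an unadjusted p under 0.05), and Bsn had a difference of 0.38 (adjusted p = 0.529).

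The training differences of CA1 and DG were compared directly in one fit of the 6 groups. They differed for 4 members, each larger in CA1, against 2.75% of 14670 genes in either direction and 1.2% in this one. Pclo differed by 0.49 (95% interval 0.32 to 0.67, adjusted p = 0.00464), Bsn by 0.62 (0.40 to 0.84, adjusted p = 0.00715), Rims1 by 0.46 (0.27 to 0.65, adjusted p = 0.0136) and Erc2 by 0.43 (0.24 to 0.62, adjusted p = 0.0166). Of these, trained Pclo and Rims1 lay above without overlap in CA1, as did 12.9% of all genes, and below in DG, as did 18.2%. The share of all genes with both orders was not computed. Rims2 (0.35, adjusted p = 0.0952) and Rimbp2 (0.34, adjusted p = 0.0799) did not pass, and Unc13a differed by 0.08 (-0.11 to 0.28). The Rims2 value ran from 0.20 to 0.51 with each animal left out. Of 16 alternatives, Rims2 passed in 1 and Rimbp2 in 3. Without untrained CA3 replicate 1 and trained DG replicate 3, Erc2 did not pass (0.40, adjusted p = 0.0588) and the other 3 did. The Erc2 value fell to 0.27 without untrained replicate 3 (adjusted p = 0.117), and Erc2 did not pass without trained replicate 2 (0.45, adjusted p = 0.0785) or trained replicate 3 (0.37, adjusted p = 0.0784) either. Rims1 did not pass without trained replicate 2 (0.46, adjusted p = 0.0699) or untrained replicate 1 (0.46, adjusted p = 0.052). With the number of genes at 0 as a covariate none of the 4 members passed, nor did any of the 14670 genes in limma (899 had an unadjusted p under 0.05), with Bsn at 0.38 (adjusted p = 0.725), Pclo at 0.57 (0.266), Rims1 at 0.52 (0.372) and Erc2 at 0.43 (0.658).

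Between CA3 and DG, Pclo passed (0.44, adjusted p = 0.0377), against 0.13% of genes, or 0.0886% in that direction, and Bsn did not (0.52, adjusted p = 0.0676). The Pclo call was lost in 9 of 16 alternatives, among them without untrained CA3 replicate 1 (0.40, adjusted p = 0.15) and with 5 of the 6 animals left out in turn (values of 0.32 to 0.48, adjusted p of up to 0.191 without the animal labelled trained 2), all but that labelled untrained 1. The Pclo value itself lay between 0.32 and 0.58 under the 16 alternatives. With the number of genes at 0 as a covariate, Pclo differed by 0.49 (adjusted p = 0.163), and no gene of the table passed (1212 had an unadjusted limma p under 0.05). Between CA1 and CA3 no member passed, against 0.0273% of genes. The Bsn difference there was 0.10 (95% interval -0.12 to 0.32). These 3 comparisons share libraries and are not independent.

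With training groups pooled and the animal as a block, none of the 9 members passed the test of levels between CA1 and CA3, CA1 and DG, or CA3 and DG, against 0.334%, 1.80% and 0.00% of the 14670 genes. Within the untrained libraries alone, both DG values lay above all 3 CA1 values for 6 of the 9 members (Bsn, Pclo, Rims1, Rims2, Erc2 and Rimbp2), as they did for 16.3% of all genes, and this was not tested separately. At an unadjusted limma p under 0.05, Bsn was lower in CA1 than in CA3 (-0.23, adjusted p = 0.455), beside 9.44% of all genes at that threshold. Against DG, beside 16.6% of all genes, Unc13a was higher in CA1 (0.14, adjusted p = 0.159) and Erc2 lower (-0.18, adjusted p = 0.247). These member counts, 1 and 2 of 9, are near those shares. For CA3 against DG no gene of the whole table passed and 660 had an unadjusted p under 0.05. The mean per kilobase of Bsn was 554.0, 651.3 and 602.1 under the labels CA1, CA3 and DG, and its SDs were 155.0, 153.0 and 65.8 over 6, 5 and 5 libraries. Given the marker values above, these contrasts compare labels whose own marker genes did not pass the test either.

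The partners of these scaffolds were read from 48 genes in 6 lists: paralogs, calcium channel subunits, Rab3 and vesicle proteins, LAR-type receptor phosphatases, CASK, Mint and Veli adaptors, and other binding partners. Over all subregions 7 of 48 rose and none fell (14.6%, beside 10.3% of all genes), and their median difference was 0.03 against 0.14 for the members. In CA1 6 of the 47 tested rose and none fell, with a median of 0.05 against 0.30. In CA3 2 of 48 rose and none fell (4.17%, beside 0.852% of all genes). In DG 1 rose and 3 fell (8.33%, beside 3.4%). The partner genes as a whole thus passed at a share of 12.8% in CA1, against 5.23% of all genes and 6 of the 9 members.

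Among the paralogs, Ppfia4, another liprin-alpha gene, rose in CA1 by 0.45 (adjusted p = 0.00021) and over all subregions by 0.30 (adjusted p = 0.00121), and its CA3 difference of 0.37 did not pass (adjusted p = 0.0594). The remaining liprin-alpha genes did not pass in CA1, where Ppfia1 and Ppfia2 both differed by 0.08. Tspoap1, a relative of Rimbp2, fell in DG by 0.29 (adjusted p = 0.0426) on the log2 scale, where Rimbp2 itself had a difference of -0.22. Unc13b, which encodes Munc13-2, had CA1, CA3 and DG differences of -0.09, 0.09 and -0.10, none past the test.

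Of 10 calcium channel subunits, the P/Q-type pore gene Cacna1a rose in CA1 (0.23, adjusted p = 0.0126) and the N-type pore gene Cacna1b rose in CA3 (0.40, adjusted p = 0.0323) and over all subregions (0.22, adjusted p = 0.00317). Of the 9 Rab3 and vesicle genes, Rab3a rose over all subregions (0.22, adjusted p = 0.00449). Rph3a, which encodes the Rab3 effector rabphilin, rose in CA1 by 0.24 (adjusted p = 0.00824) and fell in DG by 0.35 (adjusted p = 0.0104). Its training differences in CA1 and DG differed by 0.59 (adjusted p = 0.0115), as did those of Ppfia4 (0.43, adjusted p = 0.0186) and Cacna1a (0.40, adjusted p = 0.024).

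The LAR-type phosphatases are synaptic adhesion receptors that bind liprins. Ptprs rose in CA1 (0.30, adjusted p = 0.0462), CA3 (0.47, adjusted p = 0.0337) and over all subregions (0.29, adjusted p = 0.00458). Ptprd fell in DG by 0.28 (adjusted p = 0.0353), and Ptprf did not pass under any label. Apba2, which encodes the adaptor Mint2, rose over all subregions (0.22, adjusted p = 0.0051) and reached the threshold in CA1 (0.23, adjusted p just under 0.05). Ctbp1, whose product is held at terminals by Bassoon and Piccolo, rose over all subregions (0.31, adjusted p = 0.00377) and in CA1 (0.28, adjusted p = 0.0385), and its trained libraries lay above the untrained ones under all 3 labels. Rabac1, the gene of the Piccolo partner PRA1, rose in DG (0.84, adjusted p = 0.000347) and over all subregions (0.43, adjusted p = 0.00321), and its effect was smaller in CA1 than in DG by 0.65 (adjusted p = 0.0227). Between labelled subregions none of the 48 partners passed, and those with the largest log2 differences were Rims4 (0.31), Unc13d (-0.26) and Cacna2d2 (0.20) for CA1 against CA3, Rab3b (-0.47), Rims4 (0.33) and Cacna2d2 (0.29) for CA1 against DG, and Rab3b (-0.35), Ctbp2 (0.24) and Unc13d (0.20) for CA3 against DG.

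**Figure D4:**
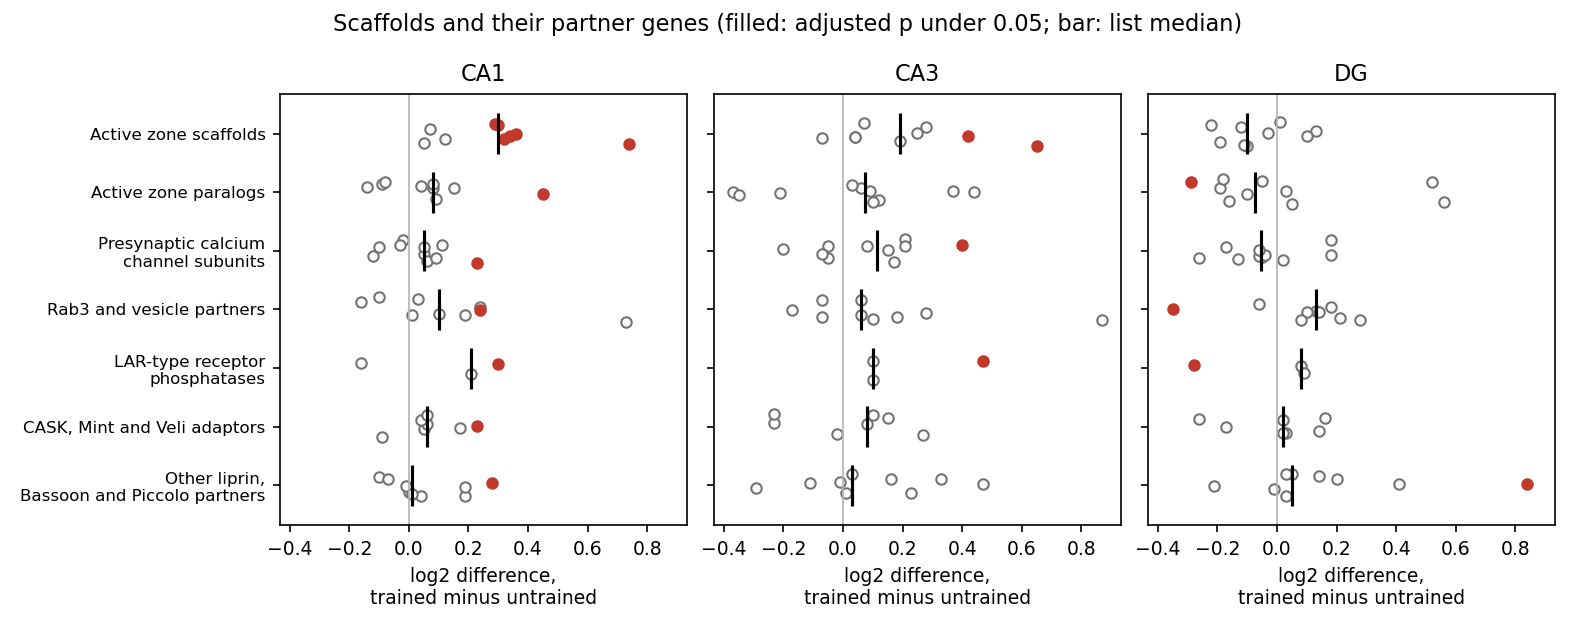
Log2 difference of trained minus untrained libraries (horizontal axes) for the 9 scaffolds and 6 lists of partner genes under each labelled subregion, 1 point per gene, filled where the limma adjusted p was under 0.05, with a bar at the list median. The scaffold medians are 0.30 in CA1, 0.19 in CA3 and -0.10 in DG, and no partner list has more than 1 filled gene in a panel.

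The members were also compared with each other and with all other genes by their pattern over the 16 libraries on the log2(value + 2) scale. The 36 pairs of members had Pearson correlations from -0.20 to 0.89 with a median of 0.46. The closest were Bsn and Ppfia3 (0.89) and Pclo and Rims2 (0.88). Among 10755 other genes of mean value at least 50, those most like Bsn were Cntnap1 (r = 0.968), the liprin gene Ppfia4 (r = 0.966) and Atp6v0a1 (r = 0.945). For Pclo it was Chgb (r = 0.965), which encodes a dense-core vesicle protein, and for Ppfia3 it was Arhgef17 (r = 0.938). The nearest genes were Nkain3 for Rims1 (r = 0.925), Magi3 for Rims2 (r = 0.917), Ncald for Erc2 (r = 0.919) and Pkd1 for Unc13a (r = 0.919). Atp2b2, a plasma membrane calcium pump, was nearest to Rimbp2 (r = 0.904) and Glg1 to Erc1 (r = 0.842). These correlations describe libraries that share training, animals and depth, and carry no test.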

How the data were processed

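Total RNA of dissected CA1, CA3 and DG was depleted of rRNA and sequenced by the authors in 16 libraries. Per the study's methods and the labels, reads were aligned with STAR to a build given as GRCm38 in the labels (the study's methods name it otherwise) and quantified with Salmon. The deposited signal is an estimated count per gene that the authors had normalized between libraries, with fractional values whose sums per library run from 7606553 to 7984144. Whole reads could not be recovered (49.7% to 79.1% of low values lay within 0.05 of a whole step), so a count test was not used, and no counting intervals are given.

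Of 24972 genes, 4 with duplicated symbols were left out. limma 3.58.1 in R 4.3.3 was run on log2(value + 2) with its trend and robust options, and p-values were adjusted by the Benjamini-Hochberg method over all genes with a value of at least 10 in at least 3 libraries (CA1) or 2 (other comparisons). An adjusted p under 0.05 was a call. Training was compared in each labelled subregion and in all with a subregion term. Labelled subregions were compared with the animal as a block, and the replicate numbers were taken to name the animals. Libraries of the same number did not deviate together (correlations from -0.108 to 0.092). Those of untrained replicate 1 also differed in Xist, with 26.05 in CA1 and 25.49 in DG but 10587 in CA3. Results with an animal left out rest on the same numbers. Training effects were compared as interactions in one fit of 6 groups. The fits were tested on simulated data. Positions, lengths and GC content came from GENCODE M21, matched by symbol for 98.0% of genes, and promoters from RefSeq.

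The named partners are those called in a training comparison, plus the 3 with the largest difference per subregion contrast, and those discussed beside them (Ppfia1, Ppfia2, Unc13b, Ptprf) were chosen after their values were seen. Members, lists and rules were chosen with earlier results of these data known. Labels do not state separate cultures or litters, so p-values measure the spread between these libraries.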

Additional observations from a re-analysis of the deposited data

Results flagged for a closer look

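Of the results on these genes, 6 stood out by simple criteria, and they are given as values. Among the 7 untrained libraries, Rims2 was 929.3 in untrained DG replicate 3, farther from the other untrained libraries than their spread by Dixon's criterion. In all, 18 groups were examined in this way, and chance marks about 1 in 20. These 7 libraries come from 3 labelled subregions.

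The training difference was larger in CA1 than in DG by a test of the difference itself for Bsn (0.62), Pclo (0.49), Rims1 (0.46) and Erc2 (0.43), all on the log2(value + 2) scale in limma. For Pclo it was also larger in CA3 than in DG (0.44), a call lost in 9 of 16 alternatives. The number of genes at 0 per library runs opposite ways with training in CA1 and in DG, and its part in these differences was not tested beyond its use as a covariate, under which none of them passed (Bsn 0.38, Pclo 0.57, Rims1 0.52 and Erc2 0.43 for CA1 against DG, and Pclo 0.49 for CA3 against DG), nor did any of the 14670 genes (limma, 899 and 1212 genes at an unadjusted p under 0.05 against DG for CA1 and CA3).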

How the results depend on the processing

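Of 1296 values of single members under the alternatives, 1243 kept their side of the threshold, 38 that had passed no longer did, and 15 newly passed. Most of the 1296 belong to results that had not passed in the first place. The 38 come only from those that had: 3 over all subregions, 6 in CA1, 2 in CA3, and 4 (CA1) and 1 (CA3) for training effects against DG. No value that had passed changed sign, and 61 values that passed in neither fit did. The count of members called in CA1 stayed at 5 to 6 of 9 under all alternatives run, beside 2.5% to 8.25% of all genes. The sex-linked score and the number of genes at 0 were not among the alternatives run within a label. The count of members called was 0 in every fit between labelled subregions and for CA1 against CA3 training effects. Where the number of members called moved by more than 1.5 times, the cause was not tested.

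Over all subregions, 3 members passed, 0 with the sex-linked covariate and 1 (without untrained replicate 1) to 4 with each animal left out. In CA3, 2 members passed, 1 without robust estimation, 1 with the GC content and length trend removed and 0 (without trained replicate 2 or untrained replicate 2) to 2 with each animal left out. In DG it was 0 members, and 0 to 1 with each animal left out (1, Pclo, without untrained replicate 1). For CA1 against DG training effects it was 4 members, 0 with the number of genes at 0 as a covariate and 2 (without trained replicate 2) to 4 with each animal left out. For CA3 against DG the share of all genes called was 0.13%. It was 0.457% with the GC content and length trend removed and 0.245% with the sex-linked covariate. The count of members there was 1 (Pclo). That count was 0 without robust estimation, 0 with the number of genes at 0 as a covariate, 0 without untrained CA3 replicate 1, 0 without that library and trained DG replicate 3 (an alternative chosen after seeing the data), 2 with the GC content and length trend removed, 2 with the sex-linked covariate and 0 to 1 with each animal left out.

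Replicate numbers of trained and untrained mice are only numbers, since the animals differ and same-numbered libraries correlated from -0.18 to 0.119. With that number as a replicate block, 4 members passed in CA3, where 8.45% of all genes did, beside 0.852% without the block. In DG 1 passed (Rimbp2), beside 3.56% of all genes. In CA1 6 passed as without the block, beside 4.14% of all genes. The animal as a block in the fits over all subregions, or its removal between subregions, moved no count of members by over 1.5 times.

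Over the whole table the count of genes called ran from 0 (sex-linked covariate) to 1878 over all subregions, from 339 (without untrained replicate 1) to 1879 (no filter) in CA1, from 7 (without trained replicate 2) to 1170 (replicate block) in CA3 and from 32 (without trained replicate 2) to 1574 (without untrained replicate 3) in DG, beside 1516, 710, 118 and 473. With the GC content and length trend removed, the median of all genes for CA1 against DG training effects moved to 0.14 and 1034 genes were higher and 314 lower, beside 176 and 228. It ran from 0 to 2039 for CA1 against DG training effects, beside 404, and from 18 to 286 for CA1 against DG, beside 264. A lone library left in a group was assumed to vary like the others. With 2 or 3 libraries a group and unstated depth, the members' intervals limit what differences these libraries could show.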
